A study of Bos taurus with 17 samples.

Results

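F-box proteins are the interchangeable subunits of SCF ubiquitin ligases, and 55 of the 17167 genes in the deposited table of bovine morulae carried an F-box name. They were taken by symbol, as every gene whose name begins with FBXL, FBXO or FBXW followed by a number. The family was chosen by the RPKM values of 2 members, FBXL14 and FBXL17, which stood higher in embryos given WNT5A, so their WNT5A values are given as a description without a test. The 55 comprised 16 FBXL genes, 31 FBXO genes and 8 FBXW genes.

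In an SCF ligase the scaffold CUL1 holds the RING protein RBX1, which recruits the ubiquitin-loaded E2 enzyme, and the adaptor SKP1, which binds the F-box of the exchangeable subunit. The rest of the F-box protein picks the substrate. FBXL proteins do so through leucine-rich repeats, FBXW proteins through WD40 repeats, and FBXO proteins through other domains or through none that is known. Attachment of NEDD8 to the cullin switches the ligase on, the COP9 signalosome removes NEDD8, and CAND1 exchanges F-box subunits between cullin scaffolds. In early embryos these ligases are known for their part in the cell cycle and in the turnover of beta-catenin.

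Each of the 17 libraries was made from a pool of 10 whole embryos of Bos taurus at the morula stage, grown in vitro. There were 9 control pools and 8 pools with recombinant WNT5A, a secreted WNT ligand, added to the culture. No genotype, age in hours, dose or timing was given in the labels, nor was it stated which pools were made on different days or from different parents. The p-values therefore measure only how much these particular pools varied, which may be technical. Expression is given in RPKM (reads per kilobase of exon per M (mega) of reads), which allows for exon length and depth. The deposited scaling did not follow the summed reads alone, and comparisons between libraries depend on it. For 3 reads on 1 kilobase it gave 0.0229 RPKM in control 6 and 0.0192 RPKM in control 1, at 150 and 149 M reads. A pool is a bulk sample, so fewer cells of a type and less RNA per cell cannot be told apart.

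A pair of library sets stood apart. WNT5A libraries 4, 12 and 14 held 34.0 to 52.4 M reads, against 140 to 200 M in the other 5 WNT5A libraries and 125 to 162 M in controls. Control libraries 2, 3 and 6 had reads for 10055 to 11268 genes, against 13587 to 15430 in the other 6 controls and 13129 to 16589 in WNT5A libraries. The summed level of 6 morula markers (POU5F1, CDX2, GATA6, GATA3, KRT18 and NANOG) was 2530 to 3057 RPKM in controls. With WNT5A it was 2190 to 3371 RPKM, with 2190 to 2307 RPKM in WNT5A libraries 4, 12 and 14. POU5F1 was the largest part of each sum, at 1636 to 2360 RPKM in controls, so low values of other markers do not show in it. GATA3 was 0.0832 RPKM in control 2 and 14.5 to 53.4 RPKM in the other controls. NANOG was 0 in control 6. CDX2, GATA6 and KRT18 had at least 16.1, 128 and 281 RPKM in every control. Of 10 cumulus and granulosa cell markers 8 were in the table, and their sum was 0 to 9.40 RPKM in controls, at most 0.00955 RPKM in controls 2, 3 and 6, and 1.32 to 4.73 RPKM with WNT5A. FSHR, INHA, CYP11A1 and FST of that list had a median of 0. Of 4 blood markers 2 were in the table, with sums of 3.60 to 19.9 RPKM in controls, 13.1 to 19.9 RPKM in controls 2, 3 and 6, and 3.47 to 7.82 RPKM with WNT5A. The 6 oocyte markers summed to 2.07 to 39.4 RPKM in controls, 26.9 to 36.2 RPKM in controls 2, 3 and 6, and 4.30 to 36.3 RPKM with WNT5A. MOS was the largest part of the sum in controls 2, 3 and 6, at 23.3, 19.0 and 22.6 RPKM. GDF9 was 0 in all 3. BMP15, ZP2, ZP3 and ZP4 were each 0 in at least 1 of them and 2.01 to 9.16 RPKM where present, so the list did not move as a whole. The part of these differences in the results on F-box genes was not tested.

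Morulae held transcripts of most of the family. Reads were present in every library for 26 members, and 18 members reached 0.5 RPKM in every library. The median over the 17 libraries was at least 10 RPKM for 17 members, between 1 and 10 RPKM for 23, and under 1 RPKM for 15. The median of these medians was 4.03 RPKM, beside 3.15 RPKM over all 17167 genes. By class it was 1.70 RPKM for FBXL genes, 3.74 RPKM for FBXO genes and 10.7 RPKM for FBXW genes. In RPKM the whole family summed to 481 to 657 in controls and to 562 to 624 with WNT5A, and it took 0.0893% to 0.151% of the reads of a library.

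**Figure D1:**
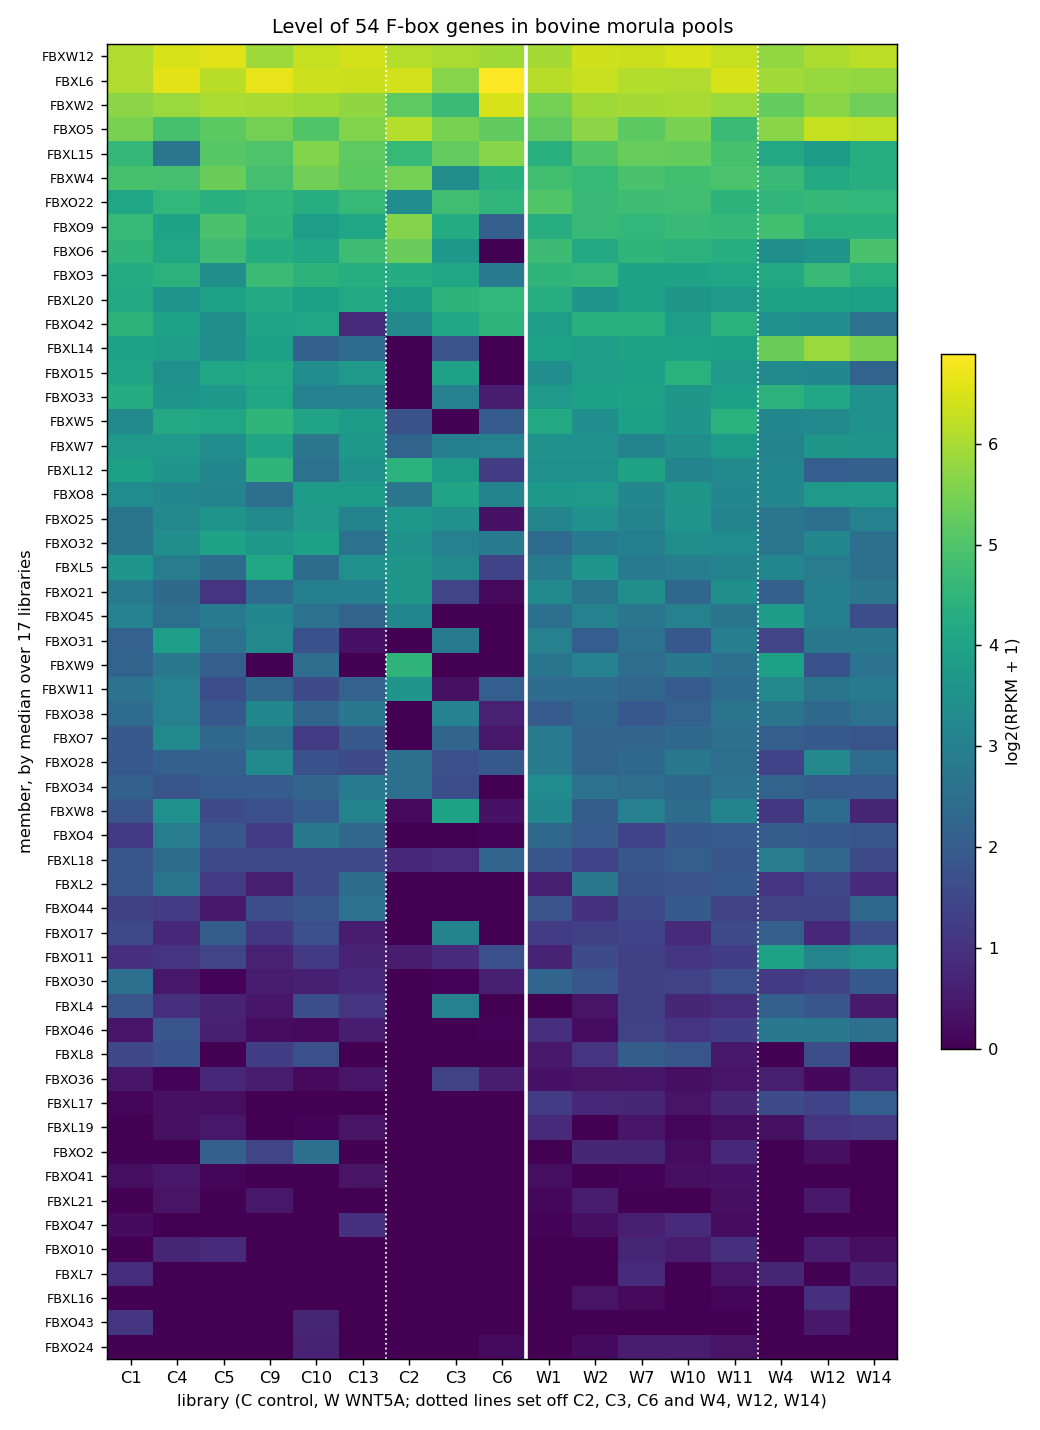
Level of 54 of the 55 F-box genes in each library as log2(RPKM + 1), with genes ordered by their median over 17 libraries, controls on the left of the solid line and WNT5A libraries on the right. Dotted lines set off controls 2, 3 and 6, where many rows turn dark, and WNT5A libraries 4, 12 and 14, where the FBXL14, FBXO11 and FBXO46 rows are brightest.

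The most abundant members were FBXW12, with 58.1 to 94.4 RPKM in controls and 53.7 to 87.1 RPKM with WNT5A, and FBXL6, with 48.3 to 117 RPKM in controls and 53.4 to 86.9 RPKM with WNT5A. Their medians over all libraries were 72.6 and 70.7 RPKM, and the groups overlapped widely for both. FBXW2, which in human placental cells targets the trophoblast factor GCM1, followed with a median of 56.6 RPKM and a range of 25.0 to 88.2 RPKM. Next in order were FBXO5 (44.2 RPKM), FBXL15 (30.8 RPKM), FBXW4 (27.8 RPKM), FBXO22 (22.7 RPKM) and FBXO9 (21.5 RPKM) by median. The ranges over libraries of neighbours in this order overlapped, so the order of single ranks is not firm.

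Among members that act on meiosis and the cell cycle, FBXO5 and FBXO43 had opposite levels. FBXO5 encodes EMI1, an inhibitor of the anaphase-promoting complex in mitotic cells. It ranged from 28.8 to 68.9 RPKM in controls, with a median of 42.9 RPKM, and from 24.8 to 76.6 RPKM with WNT5A, with a median of 47.0 RPKM. WNT5A libraries 12 and 14 were highest, at 76.6 and 73.7 RPKM. FBXO43 encodes EMI2, the related inhibitor that holds the egg in metaphase of the second meiotic division. It had reads in 2 of 9 controls and in 2 of 8 WNT5A libraries, and its highest level was 1.14 RPKM, in control 1. FBXW7, the receptor for cyclin E, MYC and NOTCH, stood at 3.65 to 15.1 RPKM in controls and 7.58 to 12.4 RPKM with WNT5A. FBXW5, which in human cells targets the centriole protein SASS6, stood at 0.0250 to 21.7 RPKM in controls and 8.08 to 20.2 RPKM with WNT5A, with its lowest values in controls 2, 3 and 6.

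The receptors of beta-catenin differed in level. FBXW11, also called beta-TrCP2, had a median of 3.51 RPKM in controls (0.232 to 11.1 RPKM) and 4.34 RPKM with WNT5A (2.99 to 8.52 RPKM). Its paralog BTRC, or beta-TrCP1, falls outside the naming rule and averaged 45.7 ± 10.7 RPKM in controls (SD, n = 9) and 39.1 ± 6.97 RPKM with WNT5A (SD, n = 8). FBXO45, which in neurons forms a ligase with MYCBP2, ranged from 0 to 8.08 RPKM in controls and from 2.16 to 12.7 RPKM with WNT5A, and had no reads in controls 3 and 6.

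FBXO15 is known in mouse as a target of OCT4 and SOX2 in embryonic stem cells. It was listed at 0 in control 2 and at 0.0183 RPKM in control 6, whereas the other 7 controls held 9.47 to 17.3 RPKM. With WNT5A it held 3.69 RPKM in library 14 and 8.28 to 20.0 RPKM in the other 7. Among leucine-rich repeat members, FBXL20 ranged from 11.2 to 22.6 RPKM over all libraries. FBXL5, the iron-sensing receptor for the iron regulatory protein IREB2, had a median of 6.72 RPKM and a highest level of 16.5 RPKM. FBXL2 ranged from 0 to 5.76 RPKM. FBXL21 did not exceed 0.427 RPKM in any library.

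FBXL14 is a receptor through which SNAI1, a transcription factor of epithelial-mesenchymal transition, is degraded in human cells. In controls it ranged from 0.00713 RPKM, or 2 reads, in control 2 to 14.3 RPKM in control 1, with a median of 4.27 RPKM. With WNT5A it ranged from 13.5 to 56.6 RPKM, with a median of 14.5 RPKM. WNT5A libraries 4, 12 and 14 held 39.3, 56.6 and 45.5 RPKM, and the other 5 lay close together at 13.5 to 14.8 RPKM. Controls 1, 4 and 9 were at 14.3, 13.5 and 13.9 RPKM, the same level as those 5. The remaining controls were lower, with 9.69 RPKM in control 5 and at most 4.27 RPKM in the others, so 5 of 8 WNT5A libraries lay above every control and 3 overlapped with the controls.

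The mean of FBXL14 was 6.83 ± 6.01 RPKM in controls (SD, n = 9) and 26.5 ± 17.7 RPKM with WNT5A (SD, n = 8), a fitted log2 difference of 2.16. All log2 differences here are WNT5A minus control on the log2(RPKM + 1) scale, which understates the change of low genes. This one was 1.27 without controls 2, 3 and 6, 1.54 without WNT5A libraries 4, 12 and 14, and 0.65 without both sets. After quantile normalization, which gives every library the same distribution of values, it was 1.87. The other 5 WNT5A libraries averaged 14.2 ± 0.462 RPKM (SD) and the other 6 controls 9.84 ± 4.93 RPKM (SD). In reads, WNT5A libraries 4, 12 and 14 held 2448, 4381 and 4133 on FBXL14 and the other 5 held 3509 to 4828, although the total depth of the 3 libraries was lower.

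FBXL17 takes part in quality control of BTB-domain dimers and is known in human cells to act on the Hedgehog regulator SUFU. It had reads in 4 of 9 controls, at 0.0728, 0.238, 0.221 and 0.00557 RPKM in controls 1, 4, 5 and 13, and none in the other 5. With WNT5A it had reads in 8 of 8 libraries, from 0.297 RPKM in library 10 to 3.16 RPKM in library 14, with a median of 1.04 RPKM. These levels rested on 132 to 440 reads per WNT5A library and at most 89 reads per control. The lowest WNT5A library lay above the highest control, so the groups did not overlap.

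FBXL17 averaged 0.0597 ± 0.0993 RPKM in controls (SD, n = 9) and 1.31 ± 0.936 RPKM with WNT5A (SD, n = 8). The mean was 2.25 RPKM in WNT5A libraries 4, 12 and 14 and 0.744 RPKM in the other 5. It was the only member whose WNT5A libraries all lay above all controls. Among all 17167 genes 4 did so (0.0233%), but FBXL17 was chosen for this contrast, so nothing is read from that count. It missed the level filter of the test, at least 0.5 RPKM in at least 8 libraries, because it reached 0.5 RPKM in 7. FBXO2 missed it with 6 libraries, while FBXL8 with 8 and FBXO46 with 9 were just inside.

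**Figure D2:**
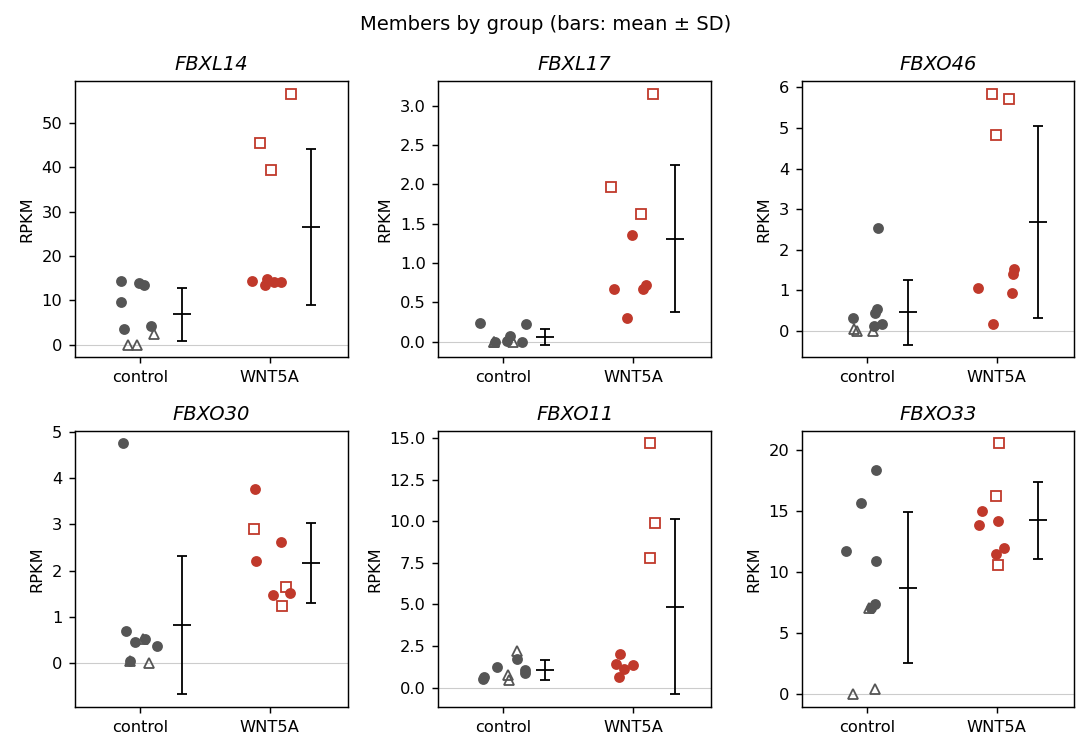
RPKM of 6 F-box genes in each control (grey) and WNT5A (red) library, with bars for mean ± SD. Open triangles are controls 2, 3 and 6 and open squares are WNT5A libraries 4, 12 and 14. FBXL14 sits at 13.5 to 14.8 RPKM in the other 5 WNT5A libraries, and FBXL17 is the gene whose groups do not overlap.

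The question of whether WNT5A altered other F-box transcripts was put to a limma fit over all 12415 genes that passed the filter, two-sided and with Benjamini-Hochberg adjustment over those genes. Of the 55 members 43 were tested (78.2%, beside 72.3% of all genes), namely 11 of 16 FBXL, 24 of 31 FBXO and 8 of 8 FBXW genes, and 42 of these were members other than FBXL14. None of the 42 passed an adjusted p of 0.05 in limma, where 0.00805% of all tested genes did. The smallest limma adjusted p among them was 0.673. At an unadjusted p under 0.05 in limma, 5 of the 42 (11.9%) had higher values with WNT5A, beside 5.73% of all tested genes. At that p 0 had lower values, beside 1.62%. The filter asks for 8 libraries, which the 8 WNT5A libraries alone can meet, so a gene can enter these counts through the group where it is high. Of the 5, FBXO46 reached 0.5 RPKM in 7 WNT5A libraries and 2 controls, and FBXO30 in 8 and 4. The counts are therefore a description only. The authors' deposited table listed no member at FDR under 0.05, where 1.01% of its genes were, and FBXO46 had the lowest FDR there after FBXL17, at 0.123.

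Fitted values lay above 0 for 31 of the 42 (73.8%) and below 0 for 11, beside 62.3% above 0 for all tested genes. The median log2 difference was 0.27 for the 42 members and 0.11 for all tested genes. After quantile normalization, which moved the median of all genes to -0.01, 61.9% of the members were above 0, beside 48.4% of all tested genes, and their median was 0.12. Without controls 2, 3 and 6 the share of members above 0 was 50.0% and their median 0.01, beside 50.7% and 0.00 for all tested genes. Without both sets of libraries it was 59.5% (25 above 0 and 17 below) with a median of 0.04, beside 55.7% and 0.03 for all tested genes. In both of these fits the members' share was near that of all genes.

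**Figure D3:**
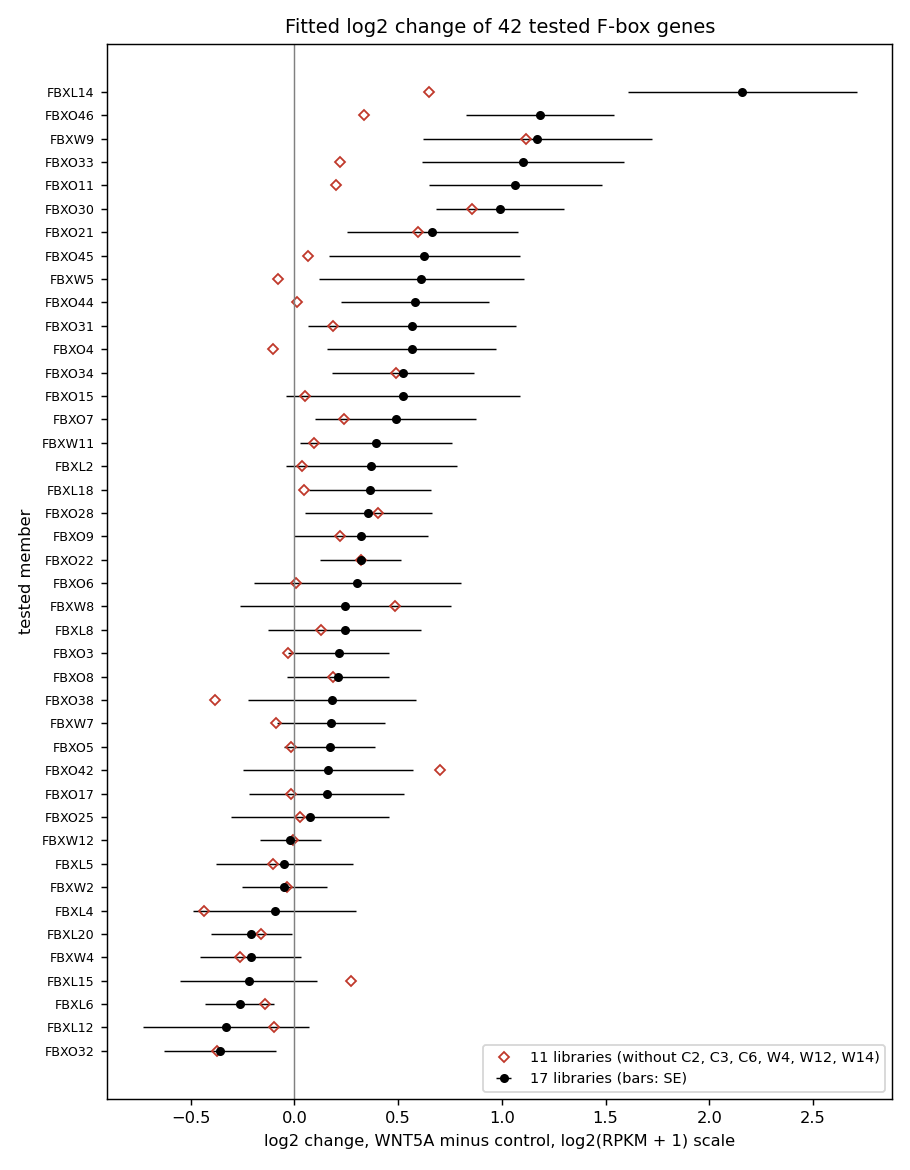
Fitted log2 difference, WNT5A minus control, on the log2(RPKM + 1) scale for 42 of the 43 tested F-box genes, FBXL14 included, with bars for the standard error in the fit of 17 libraries. Open diamonds give the fit of the 11 libraries left without controls 2, 3 and 6 and WNT5A libraries 4, 12 and 14, in which most higher values moved toward 0 while FBXW9 and FBXO30 stayed at 1.12 and 0.86.

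FBXO30 is needed in mouse oocytes for chromosome condensation in meiosis. Its 8 WNT5A libraries ranged from 1.24 to 3.76 RPKM with a median of 1.93 RPKM. Of its 9 controls 8 lay at 0 to 0.704 RPKM, and control 1 stood alone at 4.75 RPKM. Every WNT5A library was thus above 8 of the controls and the groups overlapped through control 1 only. The log2 difference was 0.99 ± 0.31 (SE; limma adjusted p = 0.673). It was 0.86 without both sets and 0.43 after quantile normalization.

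FBXW9 had reads in 8 of 8 WNT5A libraries, from 2.31 to 14.1 RPKM with a median of 5.32 RPKM, and in 5 of 9 controls. Controls 3, 6, 9 and 13 had no reads for it, whereas control 2, which lacked many other members, held the highest value of all at 21.2 RPKM. The groups overlapped. The log2 difference was 1.17 ± 0.55 (SE; limma adjusted p = 0.676), and 1.12 without both sets.

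FBXO46 ranged from 0 to 0.536 RPKM in 8 controls and was 2.54 RPKM in control 4. WNT5A libraries 4, 12 and 14 held 5.72, 5.85 and 4.84 RPKM, and the other 5 held 0.169 to 1.54 RPKM. The log2 difference of 1.18 ± 0.36 (SE; limma adjusted p = 0.673) was 0.54 without those 3 WNT5A libraries and 0.33 without both sets.

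FBXO11, a receptor for BCL6 in human B cells, showed the same 3 libraries still further apart. It ranged from 0.440 to 2.21 RPKM in controls and from 0.624 to 2.02 RPKM in the other 5 WNT5A libraries, but held 14.7, 7.77 and 9.88 RPKM in WNT5A libraries 4, 12 and 14. The log2 difference was 1.06 ± 0.42 (SE; limma adjusted p = 0.673) with all libraries and 0.19 without these 3, when the remaining WNT5A values lay inside the control range.

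FBXO33, which in human cells acts on the RNA-binding protein YBX1, was instead set apart by the controls. It held 0, 7.05 and 0.470 RPKM in controls 2, 3 and 6, 7.08 to 18.4 RPKM in the other 6 controls, and 10.6 to 20.5 RPKM with WNT5A. The log2 difference of 1.10 ± 0.49 (SE; limma adjusted p = 0.676) was 0.29 without those 3 controls.

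The next members by p were further from the threshold. FBXO22, a receptor for the histone demethylase KDM4A in human cells, had a log2 difference of 0.32 ± 0.19 (SE; limma adjusted p = 0.717), and this was 0.32 without both sets as well. FBXO44 had 0.58, FBXO21 0.66, FBXL6 -0.26 and FBXO34 0.53, with limma adjusted p of 0.717 to 0.726. Of these FBXO44 had 0.01 without both sets of libraries. FBXL6 had the lowest p of the members with lower values, and FBXO34 and FBXO21 had 0.49 and 0.59 without both sets.

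The 3 libraries with reads for the fewest genes also had the fewest F-box genes at 0.5 RPKM or more. Among the other libraries the 2 numbers did not go together closely. WNT5A library 4 had 44 members with reads for 13129 genes, and control 5 had 43 with 15430. Controls 2, 3 and 6 had 24 to 34 members at 0.5 RPKM or more, against 39 to 45 in the other 6 controls and 43 to 47 with WNT5A. These 3 controls had reads for 30 to 38 of the 55 members and for 10055 to 11268 of all 17167 genes. Of the 55 members 29 had no read in at least 1 of these 3 controls, and 16 of these had reads in all 6 other controls. The same 2 counts were not made over all genes, so they are not read as particular to the family. The mean of 14 of the 43 tested members (32.6%) was at least 2-fold lower in these 3 controls than in the other 6, beside 23.4% of all tested genes. They included FBXL14, FBXO33, FBXO15, FBXO30, FBXO45, FBXW5 and FBXO7, while the abundant FBXW12, FBXL6 and FBXO5 were not among them. FBXO6, a receptor for misfolded glycoproteins, showed how 1 library can differ, with 0.0322 RPKM in control 6 and 11.8 to 39.1 RPKM in the other 8 controls.

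**Figure D4:**
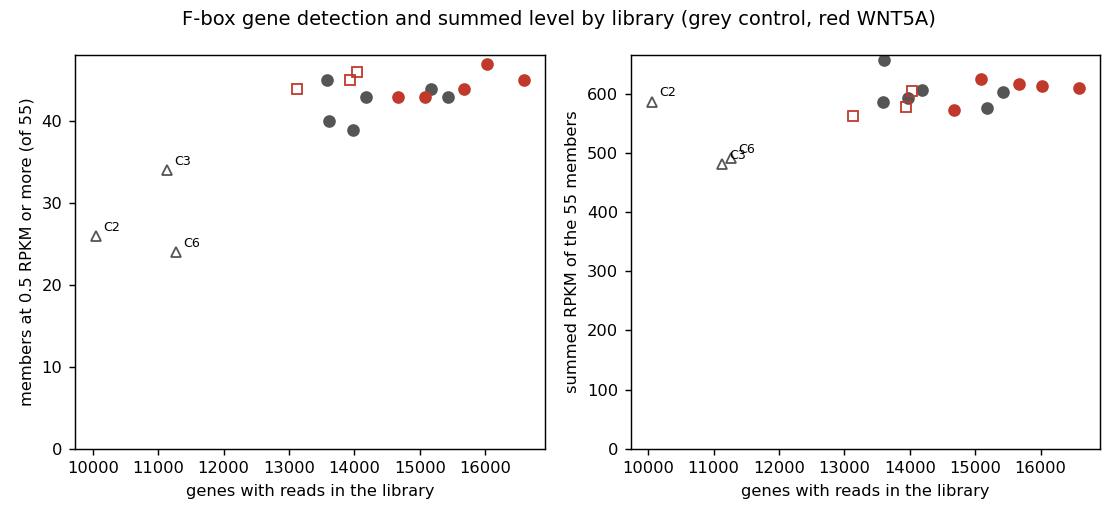
Number of the 55 F-box genes at 0.5 RPKM or more (left) and their summed RPKM (right) against the number of all genes with reads, 1 point per library (grey control, red WNT5A). Controls 2, 3 and 6 (open triangles) lie low on the left with 24 to 34 members, while WNT5A libraries 4, 12 and 14 (open squares) hold 44 to 46.

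WNT5A libraries 4, 12 and 14 did not lose members in this way, with 44 to 46 at 0.5 RPKM or more at their lower depth. Their mean was at least 2-fold above that of the other 5 WNT5A libraries for 4 of 43 tested members (9.30%), beside 10.1% of all tested genes. These were FBXO11 (8.16-fold), FBXO46 (5.36-fold), FBXL14 (3.33-fold) and FBXL4 (3.22-fold), the last a mitochondrial member. It was at least 2-fold below for 5 members (11.6%), beside 11% of all tested genes, namely FBXL2, FBXL8, FBXL12, FBXO42 and FBXW8. Both shares were near those of all genes.

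Control libraries also varied more among themselves. The SD of log2(RPKM + 1) was larger in controls than in WNT5A libraries for 39 of the 43 tested members (90.7%), beside 78.8% of all tested genes, with median SDs of 0.93 and 0.44. Without both sets of libraries it was larger in controls for 35 of 43 (81.4%), beside 81.6% of all tested genes, with median SDs of 0.54 and 0.29. The largest SDs among controls belonged to FBXL14, FBXW9, FBXO33, FBXO15 and FBXO6, with each of these at or near 0 in at least 1 of controls 2, 3 and 6.

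The partners of the F-box proteins were abundant and did not pass the threshold. SKP1 stood far above every F-box gene, at 1339 ± 370 RPKM in controls (SD, n = 9) and 1123 ± 288 RPKM with WNT5A (SD, n = 8). CUL1 averaged 37.9 ± 6.90 RPKM in controls (SD, n = 9), with a range of 26.1 to 52.3 RPKM, and 29.6 ± 3.47 RPKM with WNT5A (SD, n = 8), with a range of 25.5 to 36.0 RPKM. Its log2 difference was -0.34 ± 0.15 (SE; limma adjusted p = 0.676), and -0.32 without both sets. Lowest of the controls was control 3, and every other control lay above 7 of the 8 WNT5A libraries. RBX1 had a log2 difference of -0.27 and SKP1 of -0.24, which were -0.01 and -0.02 without both sets. Of the 6 genes listed as SCF core and partners, 2 had higher fitted values, beside 62.3% of all tested genes. The other 4 had lower values, among them the partner CKS1B (-0.36). At an unadjusted p under 0.05 in limma 1 of the 6 was lower, beside 1.62% of all tested genes, and 0 passed adjustment.

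Among 12 tested genes of NEDD8 conjugation and CAND exchange 9 had higher fitted values, beside 62.3% of all tested genes. At an unadjusted p under 0.05 in limma 0 were lower, beside 1.62% of all tested genes, and 1 was higher, beside 5.73%. This was UBE2M, the NEDD8 E2 enzyme, with 18.8 to 33.3 RPKM in controls, 21.4 to 30.7 RPKM in 5 WNT5A libraries and 73.8, 80.0 and 93.3 RPKM in WNT5A libraries 4, 12 and 14. Its log2 difference of 0.76 was 0.04 without both sets. NAE1, a subunit of the NEDD8-activating enzyme, had 0.40 (0.07 without both sets). Of 10 tested COP9 signalosome genes 3 had higher fitted values, beside 62.3% of all tested genes. The other 7 had lower values, with the smallest limma p for COPS7B (-0.40) and COPS6 (-0.26). At an unadjusted p under 0.05 in limma 1 was lower (COPS7B), beside 1.62% of all tested genes, and 0 were higher, beside 5.73%. The differences of COPS7B and COPS6 became -0.15 and -0.04 without both sets. COPS7A, named after its values were seen, had the largest difference of the list and in the other direction (0.90). It held 31.5, 51.5 and 43.4 RPKM in WNT5A libraries 4, 12 and 14 and averaged 5.41 RPKM in the other 5, and its difference was -0.07 without both sets.

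**Figure D5:**
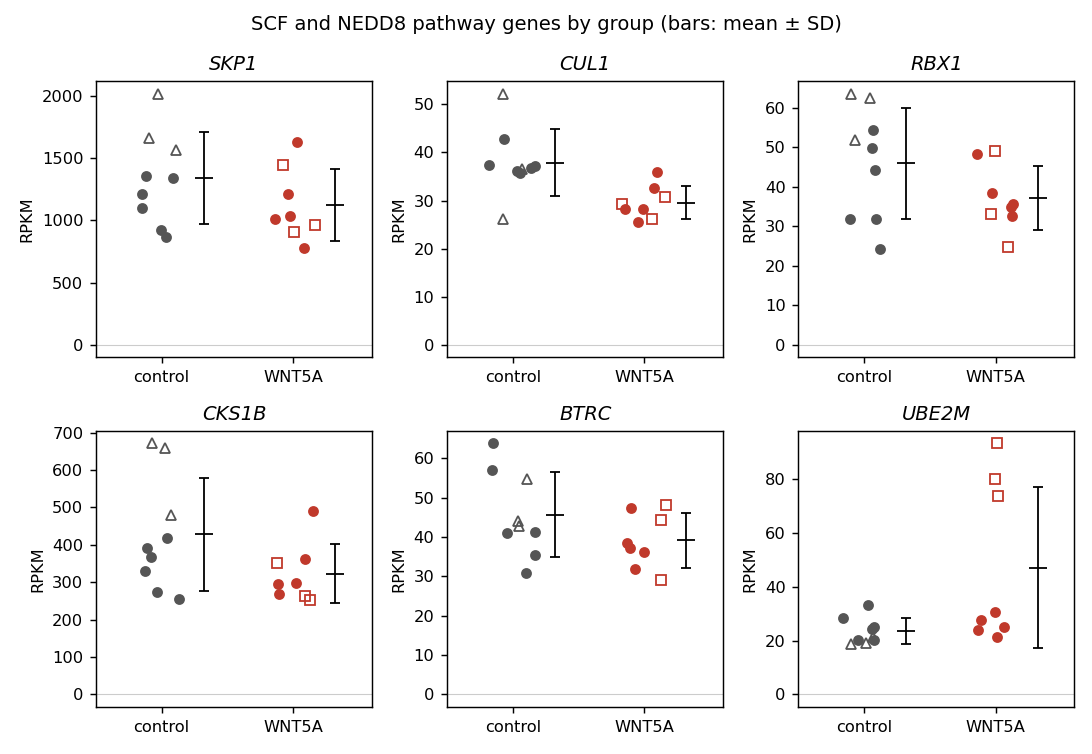
RPKM of the SCF core genes SKP1, CUL1 and RBX1, the SCF partner CKS1B, the F-box gene BTRC and the NEDD8 enzyme gene UBE2M. Each control (grey) and WNT5A (red) library is shown, with bars for mean ± SD. Open triangles are controls 2, 3 and 6 and open squares are WNT5A libraries 4, 12 and 14. CUL1 lies at 25.5 to 36.0 RPKM with WNT5A, and UBE2M reaches 73.8 to 93.3 RPKM in the open squares only.

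The list of E2 enzymes that load SCF ligases had 6 of 9 higher fitted values, near the 62.3% of all tested genes. ARIH1 in this list, at 0.06, is an E3 ligase and not an E2 enzyme. At an unadjusted p under 0.05 in limma 1 was higher (UBE2D2), beside 5.73% of all tested genes, and 1 lower (CDC34), beside 1.62%. UBE2D2 had a log2 difference of 0.64, with a mean of 68.6 RPKM in WNT5A libraries 4, 12 and 14 and 29.0 RPKM in the other 5, and CDC34 had -0.43. Without both sets these were 0.16 and 0.02. Of 12 other cullins and adaptors 8 were above 0, beside 62.3% of all tested genes, led by CUL4B (0.59) and DDB1 (0.54). None of the 12 had an unadjusted p under 0.05 in limma, where 5.73% of all tested genes were higher and 1.62% lower. Of 12415 tested genes 1 passed adjustment, and it was in none of these lists. DDB1 had -0.21 without both sets. F-box genes with other names had 3 of 6 above 0, beside 62.3% of all tested genes, with FBH1 (-0.48) and BTRC (-0.20) at the smallest limma p.

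Known SCF substrates had 9 of 15 higher fitted values, near the 62.3% of all tested genes. At an unadjusted p under 0.05 in limma 2 were higher, beside 5.73% of all tested genes, and 0 were lower, beside 1.62%. The 2 were CDKN1B, which encodes the cell cycle inhibitor p27 (0.87), and CCNE1, which encodes cyclin E (0.90). CDKN1B averaged 5.94 RPKM in WNT5A libraries 4, 12 and 14 and 1.31 RPKM in the other 5, and its difference was 0.17 without both sets. CCNE1 had 0.38 without both sets. SNAI1, a substrate of FBXL14 though not of it alone, averaged 39.1 ± 22.3 RPKM in controls (SD, n = 9) and 32.4 ± 5.53 RPKM with WNT5A (SD, n = 8). Its log2 difference was -0.05 ± 0.31 (SE, limma adjusted p = 0.969). None of the genes in these lists passed an adjusted p of 0.05 in limma.

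Some members share their place in the genome with another gene. The strand setting of the counting is not given in the sources used here, so overlapping genes may share reads. Overlap here is of whole gene spans, introns included, and whether the counted exons overlap was not checked. By RefSeq gene order, 13 of the 54 members with a RefSeq symbol overlap a protein-coding neighbour. FBXL14 lies within the span of WNT5B, a WNT5A paralog, which held at most 1.34 RPKM in any library and averaged 0.457 RPKM in controls and 0.536 RPKM with WNT5A. ADIPOR2, its neighbour on the other side, was highly expressed at 300 to 370 RPKM in controls and was lowest in WNT5A libraries 4, 12 and 14, at 281, 239 and 192 RPKM. FBXO11 overlaps the mismatch repair gene MSH6, which averaged 89.0 RPKM in WNT5A libraries 4, 12 and 14, 66.2 RPKM in the other 5, 35.0 RPKM in controls 2, 3 and 6 and 70.3 RPKM in the other 6. FBXO46 overlaps QPCTL, which averaged 19.3 RPKM in WNT5A libraries 4, 12 and 14 and 27.6 RPKM in the other 5. FBXO6, FBXO44 and FBXO2 lie next to each other, and their medians over 17 libraries were 18.5, 1.54 and 0.0307 RPKM.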

How the data were processed

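Per the labels' protocols, RNA of 17 pools came from a Qiagen micro kit, and stranded mRNA libraries from a TruSeq kit. The tools FastQC, HISAT2, featureCounts, edgeR and the ARS-UCD1.2 assembly are named in the submitters' processing notes, without versions. RPKM were deposited by the authors for each gene and library beside the exon length. Their log2 fold change, log2 CPM, likelihood ratio score, p-value and FDR per gene stand in the same deposited table, per the file headers. Unused per-sample columns numbered 0.

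RPKM times length gave whole reads for 100% of values (tolerance 0.01). A floor of 3 reads on 1 kilobase equalled 0.0155 to 0.0841 RPKM, for counting error only, as no molecular identifiers tell PCR copies from separate molecules. The plan kept a count test for deposited counts. As the deposited unit was RPKM, it was not run, and the recovered reads served as read numbers and, scaled to library size, in 1 alternative. The fit used limma 3.58.1 (R 4.3.3), with the trend and robust options of eBayes, on log2(RPKM + 1). It took genes that reached 0.5 RPKM in 8 libraries or more, and was tested on simulated data. Groups came from the labels. Plots used matplotlib 3.10.9 in Python 3.11.15.

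Members, gene lists, tests and the libraries left out in alternatives were chosen with earlier results of these data known. Named members were FBXL14 and FBXL17, the 8 with the highest medians, the 10 others with the smallest p, the 5 with the largest SD among controls, members with known roles, and those at the edge of the filter. Values of 1 member that met this rule are not reported here. Each pathway list gave its 2 genes with the smallest p, beside SKP1, CUL1 and RBX1. WNT5B, ADIPOR2, MSH6, QPCTL and SNAI1, and members named in the paragraphs on libraries set apart, were chosen after their values were seen. Alternatives were other pseudocounts, filters, scalings and variance settings, left-out libraries, and a replicate block. Gene order came from RefSeq (ARS-UCD2.0), used for neighbours only, so positions are not given.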

Additional observations from a re-analysis of the deposited data

Results flagged for a closer look

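Dixon's test was applied on the log2(RPKM + 1) scale to 58 groups of values (29 named members, controls and WNT5A libraries apart). On that scale 8 groups held a library far from all others of its group. Chance gives about 1 in 20 groups when groups are not picked by their values. Some members were named for a large SD among controls or a small p, so the 8 cannot be set against that rate. The levels printed here are RPKM, on which the same libraries need not stand as far apart. In 3 of them control 6 was low: FBXO34 had 0 RPKM there and at least 2.17 RPKM in the other controls, FBXO6 had 0.0322 RPKM against at least 11.8 RPKM, and FBXO9, a receptor for the TEL2 and TTI1 proteins in human cells, had 3.24 RPKM against at least 13.4 RPKM. Control 4 was low for FBXL15, at 5.49 RPKM against at least 23.1 RPKM, and high for FBXO46, at 2.54 RPKM against at most 0.536 RPKM. Control 1 was high for FBXO30, at 4.75 RPKM against at most 0.704 RPKM. Among WNT5A libraries, library 1 was high for FBXO34, at 9.29 RPKM against at most 5.14 RPKM. WNT5A library 12 was high for FBXO43, at 0.395 RPKM against at most 0.0235 RPKM. For FBXO43 this was 47 reads against 9 in library 11 and none in the other WNT5A libraries, so the flag rests on values at the floor.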

How the results depend on the processing

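The count of members past an adjusted p of 0.05 stayed at 0 under all 28 alternatives, and their smallest limma adjusted p was 0.246. The count at an unadjusted p under 0.05, 5 with all libraries, was 1 after quantile normalization (FBXO33), where 395 of 12415 genes were higher and 411 lower. It was 1 without WNT5A libraries 4, 12 and 14 (FBXO30; 309 genes higher and 32 lower) and 2 without both sets of libraries (FBXO30 and FBXW9; 238 and 90). Without controls 2, 3 and 6 it was 4 higher and 1 lower, FBXW4 (325 and 232). With no filter it was 6 of 53 members (1009 and 211 of 17167 genes), and it was 3 to 5 when 1 library was left out, with 3 without control 6 or WNT5A library 4. The median log2 difference of members was 0.16 to 0.34 when 1 library was left out. Of 755 log2 differences of 27 named genes under the alternatives 750 kept their sign. The exceptions were FBXO21 at -0.35 in the 8 libraries numbered 1, 2, 4 and 10 with or without the block, and, without both sets, DDB1 at -0.21, CDC34 at 0.0157 and CKS1B at 0.0019. Most of these 27 genes were picked for a small p with all libraries, and 17 of the alternatives left out only 1 library. Most signs were therefore likely to hold from the start. Genes outside the 27, such as COPS7A and FBXW5, did change sign without both sets. FBXO46 was not tested with a filter of 1 RPKM. For numbers shared between groups, same-numbered deviations correlated at 0.216, 0.109, 0.0571 and 0.0217 (numbers 1, 10, 2 and 4). Control 10 correlated best with WNT5A library 10, and the other numbered controls did not correlate best with their own number. With no reference for unpaired libraries, these values cannot decide whether the numbers pair the libraries. With the replicate number as a block the unadjusted count was 0 (210 genes higher and 110 lower). In the same 8 libraries with no block it was also 0 (152 and 69). The cause of these shifts was not tested. Levels under 0.0841 RPKM were near the depth limit of the shallowest library.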
